A study of Homo sapiens with 18 samples.

Results

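Sterol and fatty acid synthesis genes were examined in SH-SY5Y cells, a human neuroblastoma line, after a short exposure to cocaine. The set held 35 of the 19775 genes named on the arrays, chosen by symbol for their place in these pathways, and took in every probe set of a member. 31 members had a probe set of their own, 73 probe sets in all. CYP51A1, ELOVL1 and FADS1 were found only in probe sets that list several symbols and FDFT1 in none that was named, so no value is given for these 4 genes. Probe sets were kept at a time where their average on its 9 arrays exceeded 5.32, the log2 of 40, which left 57 probe sets of 30 genes at 6 h and 63 of 31 genes at 24 h. Only MVD (mevalonate diphosphate decarboxylase) of these genes did not pass at 6 h.

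All cells had been differentiated with 10 μM retinoic acid for 7 days and then kept without it for 24 h before cocaine was added, in the untreated dishes too. The 6 groups were 0, 1 or 5 μM cocaine for 30 min, harvested 6 or 24 h later, with 3 arrays in each group and RNA pooled from 3 dishes on each array, 18 arrays in all. The model is 1 cell line, and the pools carry the spread between sets of dishes. As these are bulk samples, fewer cells of a type and less RNA per cell cannot be told apart. Values are log2 signals from the deposited table, and differences are log2 fold changes with their standard error (SE).

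Cholesterol is built from acetyl-CoA through mevalonate, isoprenoid units, squalene and lanosterol, and fatty acids are built from the same precursor by ACLY, ACACA and FASN before they are elongated and desaturated. The transcription factors SREBP-1 and SREBP-2, encoded by SREBF1 and SREBF2, drive most of these genes. SCAP carries them out of the endoplasmic reticulum when sterols are low, and the INSIG proteins hold SCAP back when sterols are high, so that the members often move together. In neurons and neuron-like cells the pathway serves membrane growth, and ABCA1, which exports cholesterol, answers instead to sterol-sensing nuclear receptors.

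The arrays were first compared with what the labels say of the cells. PHOX2A, HAND2, GATA2, GATA3, ISL1, DBH, CHGA and STMN2, markers of noradrenergic neuroblastoma cells, were above the signal threshold on all 18 arrays, while TH, the marker of dopamine synthesis, was below it on all. The paper assessed TH as protein by Western blot in the differentiated cells, whereas the arrays read RNA. The leukocyte markers PTPRC, CD14 and CD3E were below the threshold on all arrays, whereas COL1A1, DCN and LUM, genes also used as fibroblast markers, were above it on all and COL1A2 on none. Of the hepatocyte markers, TTR was above it on 10 arrays and ALB and APOA1 on none. Of the epithelial markers, KRT18 was above it on all 18 arrays, EPCAM on 7 and CDH1 on none. Untreated arrays 2 and 3 of 6 h stood apart in a retinoic acid target: CYP26A1 was at 10.69 and 10.99 there, against 4.95 to 5.61 on the other 7 arrays of 6 h. The untreated array 3 of 24 h was also high, at 9.55. The hybridization control bioD, given as its log2 signal minus that of the control cre, also separated untreated arrays of 6 h, at -1.13 to -1.03, from the 6 cocaine arrays, at -1.61 to -1.50. The controls bioB (-5.58 to -5.47 against -5.52 to -5.30) and bioC (-3.82 to -3.66 against -3.82 to -3.62) overlapped. The excess of 3' over 5' signal of ACTB, a sign of RNA quality, was 0.55, 1.12 and 0.89 without cocaine and 0.49 to 0.72 with it. CYP26A1, bioD and the ACTB excess move with the untreated side of every comparison with 0 μM at 6 h, and their part in the results below was not tested. Results that rest on untreated arrays 2 and 3 are given without them as well. Such a difference sets untreated array 1 against the mean of all 3 arrays of a cocaine dose. It therefore also carries any difference between replicate numbers, and pair 1 (the arrays numbered 1) can be read from the array values.

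The promoters were searched for the letters of the sites that SREBP and NF-Y, a factor that often acts beside it, are known to bind. In the RefSeq promoter windows (250 bases before to 50 after a start, build GRCh38.p14), 31 members had 42 windows, and none was listed for ACAT2, FASN, FDFT1 and SQLE. The NF-Y box CCAAT, on either strand, was found in 26 of the 42 windows (61.9%), of 22 genes, against 34.6% of all 35116 windows. The E-box CACGTG, which reads the same on both strands, was in 7 windows (16.7%) against 7.26% of all, and the sterol response element TCACNCCAC in 1 window (2.38%) against 1.13% of all. The sterol response element ends in the letters that begin the E-box, so matches to these can overlap, and a match is a description of the letters only. The stretches below are from 5 members described here at 6 h, each 30 bases in the direction of transcription, with the motif in capitals (ATTGG is the box read on the other strand). They lie at chr22:41832962-41832991 (+) for the sterol response element of SREBF2 and chr7:155297811-155297840 (+) for the E-box of INSIG1. For DHCR7, STARD4 and ELOVL5, 1 of the 2 NF-Y boxes of each is shown. These lie at chr11:71448470-71448499 (-), chr5:111512679-111512708 (-) and chr6:53349001-53349030 (-), in that order.
SREBF2: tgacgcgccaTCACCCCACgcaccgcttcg
INSIG1: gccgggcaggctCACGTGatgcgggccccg
DHCR7: caggctcctcgaCCAATcacggggcgcgga
STARD4: atttatcggccaCCAATcagccctccacac
ELOVL5: cttcgggtcccgATTGGctggccgcgccat

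The arrays differed among themselves by replicate number more than by dose. With 1 probe set taken per gene, the brightest, mean signals at 6 h ran from 6.51 to 11.54, and the heat map shows the deviations from those means. The replicate number accounted for a median of 51.2% of a member's spread at 6 h and dose for 29.3%, against 38.1% and 31.1% over all genes. IDI1 (208881_x_at), which isomerizes the isoprenoid units, owed 92.6% of its spread to the number and 1.91% to dose, and HMGCS1 (221750_at), which makes the precursor of mevalonate, owed 92.5% and 5.98%. HMGCS1 was at 8.69, 8.28 and 8.65 in the untreated arrays 1, 2 and 3, at 8.51, 8.16 and 8.61 with 1 μM and at 8.56, 8.19 and 8.61 with 5 μM. Replicate 2 was the lowest array at every dose in 10 of 30 members (33.3%), among them HMGCS1, IDI1, ACAT2, SQLE, INSIG1, SREBF2 and DHCR7, against 6.25% of all genes. The arrays were therefore also compared within replicate numbers, with the number as a block in the fit.

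**Figure D1:**
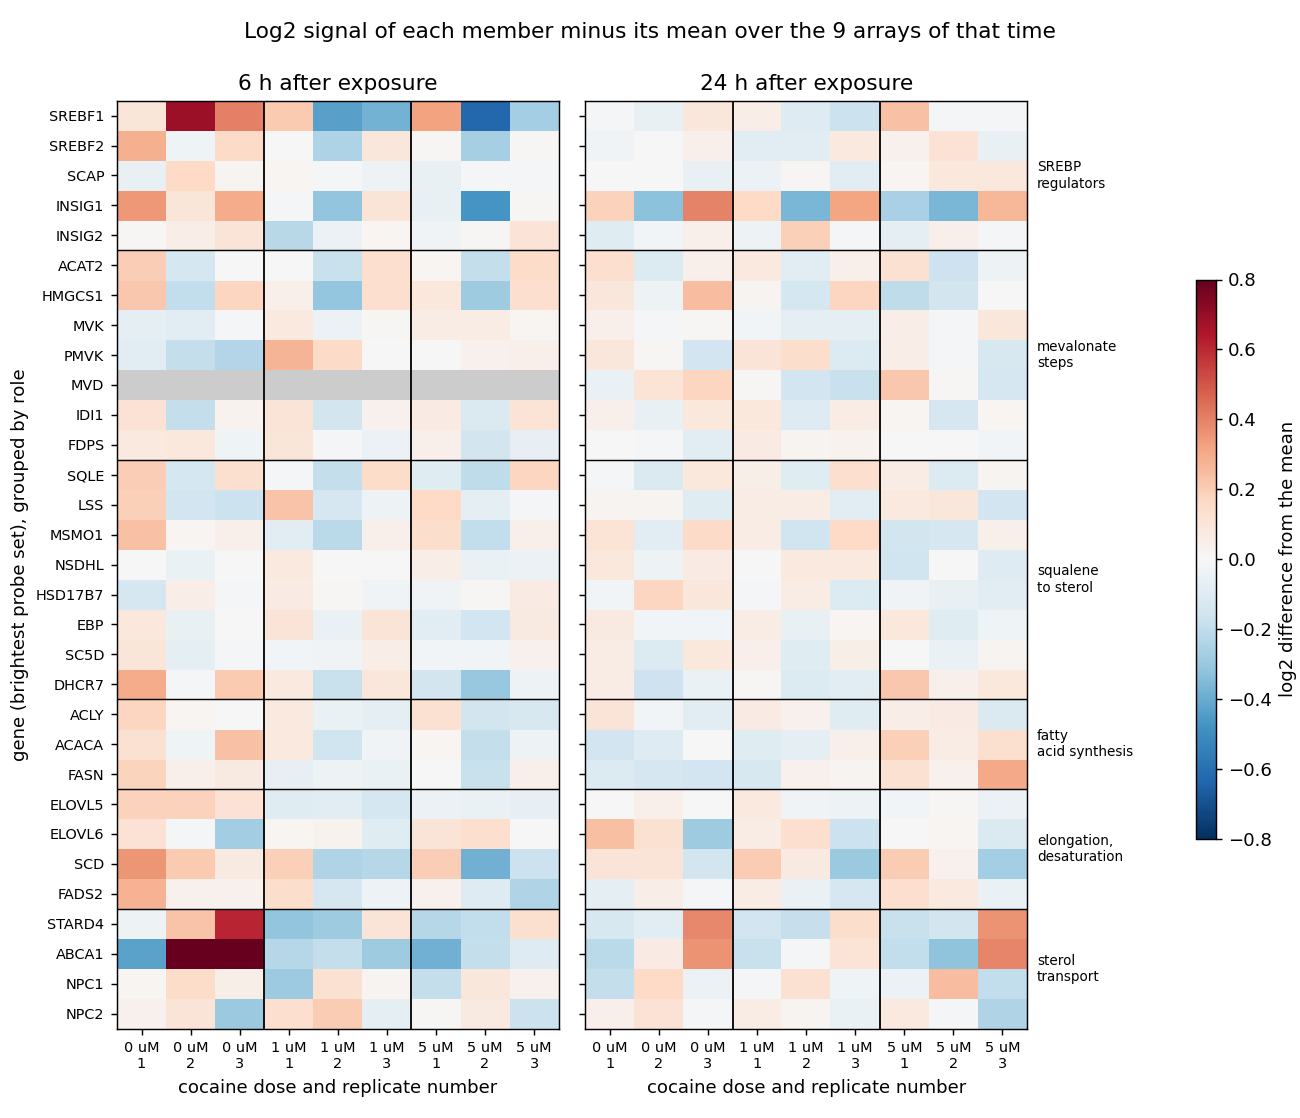
Log2 signal of each of 31 members at its brightest probe set minus its mean over the 9 arrays of the time, by cocaine dose (columns, μM) and replicate number, with genes grouped by role; blue is lower and red is higher, the colour scale ends at 0.8 (ABCA1 passes it), and MVD is grey at 6 h. Most mevalonate and sterol genes are lower in replicate 2 than in replicate 1 at each dose of 6 h, and ABCA1 and SREBF1 are red in untreated arrays 2 and 3.

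At 6 h, 1 member was lower with 5 μM cocaine past the threshold, an adjusted p under 0.10: ELOVL5, which lengthens polyunsaturated fatty acids. The arrays read 11.53, 11.53 and 11.46 without cocaine, 11.24, 11.26 and 11.20 with 1 μM and 11.30, 11.29 and 11.27 with 5 μM (208788_at). All cocaine arrays were below all untreated arrays, and 95.8% of the spread of ELOVL5 belonged to dose, the highest share of the 30 members. The change with 5 μM was -0.22 (SE 0.047, adjusted p = 0.0823 from limma), and -0.24 without untreated arrays 2 and 3 (adjusted p = 0.26). The call was kept when untreated array 1 or the first 1 μM array was left out and lost when any of the other 7 was, with adjusted p of 0.116 to 0.239.

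That was 1 of 57 probe sets of the members (1.75%), against 2.98% of all 22455 tested in either direction, 1.57% higher and 1.42% lower. 8 member probe sets (14%) had an unadjusted p under 0.05, against 3871 of all (17.2%). With the replicate number as a block, 18 member probe sets of 13 genes passed (31.6%), against 18.6% of all, and 6 of them were higher (10.5%, against 7.75% of all) and 12 lower (21.1%, against 10.9%). Leaving out 1 array moved the block count to 23 (untreated 1), 2 (untreated 2), 7 (untreated 3), 11, 1 and 2 (5 μM arrays 1, 2 and 3) and 15, 12 and 10 (1 μM arrays 1, 2 and 3). The block count over all 22455 probe sets moved as well, in the same order to 6654, 669, 1234, 2757, 353, 350, 4206, 2734 and 2740. Taking out untreated arrays 2 and 3 together leaves 1 untreated array. There, in the fit without the block, 16 of the 18 member probe sets kept the sign of their difference. Untreated array 1 and the 5 μM arrays stand in both fits, so the signs are not independent. The share over all block calls was not counted. The arrays of 0 and 5 μM did not overlap in 9 member probe sets (15.8%), against 21.2% of all. Over genes at their brightest probe set, the median difference was -0.10 for the members and -0.03 for all genes. Of the members 22 of 30 were below 0, and of all genes 7299 of 11943.

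Among the SREBP regulators, INSIG1 and SREBF2 were lower with 5 μM once the replicate number was in the fit. INSIG1 (201626_at), the retention protein and itself a target of SREBP, was at 8.95, 8.71 and 8.90 without cocaine and at 8.55, 8.14 and 8.62 with 5 μM. The 2 doses did not overlap, and the 1 μM arrays, at 8.59, 8.29 and 8.71, were close to the 5 μM ones. INSIG1 differed by -0.42 (SE 0.15, adjusted p = 0.206 from limma, 0.0200 with the block). Without untreated arrays 2 and 3 it differed by -0.52, whereas in pair 1 INSIG1 went from 8.95 to 8.55. Its other probe sets differed by -0.25 (201627_s_at) and -0.07 (201625_s_at), without passing in either fit. SREBF2 (201247_at) was at 7.23, 6.91 and 7.10 against 6.95, 6.68 and 6.95, lower in each of the 3 pairs of equal number but overlapping between doses. It differed by -0.22 (adjusted p = 0.389, 0.0503 with the block), or -0.37 without untreated arrays 2 and 3, and its probe set 201248_s_at by -0.24 (block adjusted p = 0.0702), while the dim 242748_at differed by 0.17 (block adjusted p = 0.0722). SREBF1 (202308_at) was at 6.61, 7.19 and 6.91 against 6.83, 5.88 and 6.24. Replicate 1 was higher with cocaine and the other 2 were lower, and the difference of -0.59 (SE 0.27, adjusted p = 0.303, 0.174 with the block) became -0.29 without untreated arrays 2 and 3, although pair 1 alone differed by 0.22. SCAP and INSIG2 differed by -0.07 and -0.03.

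**Figure D2:**
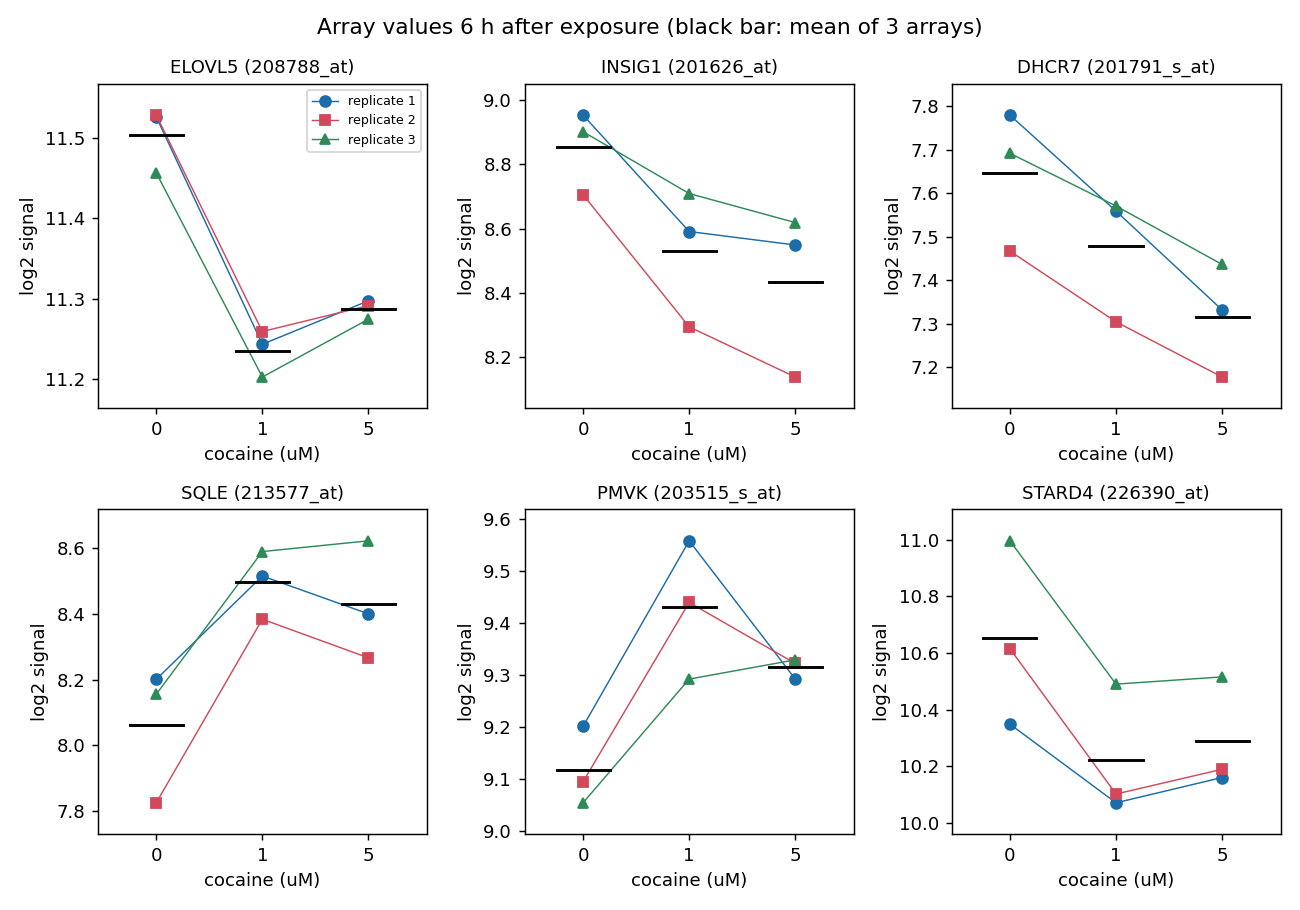
Log2 signal on each array 6 h after exposure against cocaine dose (μM) for 6 members, 1 line and symbol per replicate number and a black bar at the mean of 3 arrays. ELOVL5 is lower on all 6 cocaine arrays, replicate 2 lies below the others at each dose for INSIG1, DHCR7 and SQLE, and replicate 3 lies above the others for STARD4.

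Of the early mevalonate and isoprenoid genes, PMVK, the kinase that makes mevalonate diphosphate, was the only one higher in the block fit. Its arrays read 9.20, 9.10 and 9.05 without cocaine, 9.56, 9.44 and 9.29 with 1 μM and 9.29, 9.32 and 9.33 with 5 μM (203515_s_at). All cocaine arrays were above all untreated ones, with a difference at 5 μM of 0.20 (SE 0.074, adjusted p = 0.229 from limma, 0.0874 with the block) and of 0.11 without untreated arrays 2 and 3. IDI1 passed with the block at 1 of 4 probe sets, 233014_at (-0.18, block adjusted p = 0.0798, and -0.03 without those arrays), and the others differed by 0.04 (208881_x_at), 0.13 (204615_x_at) and 0.12 (242065_x_at). HMGCS1 differed by -0.09 at its bright probe set 221750_at and by 0.29 at the dim 205822_s_at. MVK differed by 0.10 (36907_at) and -0.13 (204056_s_at), ACAT2 by -0.03 and FDPS by -0.10, with no call in either fit.

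Of the squalene and sterol genes, DHCR7 was lower and SQLE higher in the block fit, each at some of its probe sets. DHCR7, which makes cholesterol in the last step from 7-dehydrocholesterol, was at 7.78, 7.47 and 7.69 without cocaine, 7.56, 7.30 and 7.57 with 1 μM and 7.33, 7.18 and 7.44 with 5 μM (201791_s_at). Within each replicate number the value stepped down from 0 to 1 to 5 μM, and the difference at 5 μM was -0.33 (SE 0.11, adjusted p = 0.183 from limma, 0.0206 with the block) and -0.46 without untreated arrays 2 and 3. Its second probe set, 201790_s_at, differed by -0.05. SQLE, the epoxidase that oxidizes squalene, was at 8.20, 7.83 and 8.16, at 8.52, 8.38 and 8.59, and at 8.40, 8.27 and 8.62 at probe set 213577_at. Each cocaine array was above all 3 untreated arrays, by 0.37 at 5 μM (SE 0.12, adjusted p = 0.184, 0.0273 with the block) and by 0.23 without untreated arrays 2 and 3. The brightest probe set of SQLE, 209218_at, did not share this: it was at 9.99, 9.66 and 9.93 against 9.70, 9.60 and 9.98, a difference of -0.10 with no call in either fit. The dim probe sets 1557352_at and 213562_s_at differed by 0.26 (block adjusted p = 0.0928) and 0.19. The other genes of the group differed by -0.10 (MSMO1), 0.07 and 0.06 (LSS), 0.00 and -0.07 (NSDHL), -0.06, -0.09 and 0.08 (EBP), -0.01 (SC5D) and 0.05 (HSD17B7, whose x_at probe set can also read copies of the gene), with no call in either fit.

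The 3 genes that make fatty acids were below 0 at their brightest probe sets. ACLY, which supplies cytosolic acetyl-CoA, was at 8.56, 8.34 and 8.34 against 8.35, 8.15 and 8.09 at 201127_s_at, and passed with the block (-0.22, SE 0.10, adjusted p = 0.306 from limma, 0.0305 with the block; -0.36 without untreated arrays 2 and 3). Its brighter probe sets differed by -0.12 (201128_s_at) and -0.08 (210337_s_at). ACACA, the carboxylase that commits acetyl-CoA to fatty acids, was at 9.16, 9.00 and 9.27 against 9.05, 8.84 and 9.00 at 212186_at. Each pair of equal number was lower with cocaine, by -0.18 on average (block adjusted p = 0.0785), whereas the dim probe set 214358_at differed by 0.29 (block adjusted p = 0.0836). That probe set differed by -0.05 without untreated arrays 2 and 3, although it went from 5.86 to 5.88 in pair 1. FASN, the synthase, was at 7.46, 7.32 and 7.35 against 7.28, 7.10 and 7.32 at 212218_s_at, without overlap, and its difference of -0.14 passed in neither fit (adjusted p = 0.331 and 0.160 with the block), being -0.23 without untreated arrays 2 and 3. Its dim probe set 217006_x_at differed by -0.08.

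Beside ELOVL5, the elongation and desaturation genes SCD and FADS2 passed with the block. SCD, the delta-9 desaturase, was at 10.88, 10.74 and 10.60 against 10.72, 10.14 and 10.35 at 200832_s_at, lower in each pair. The difference was -0.33 on average (SE 0.17, adjusted p = 0.345 from limma, 0.0527 with the block). It was -0.47 without untreated arrays 2 and 3, whereas in pair 1 SCD went from 10.88 to 10.72. Its dim probe set 211708_s_at went the other way, from 5.36, 5.10 and 5.19 to 5.91, 5.43 and 5.37, a difference of 0.35 (block adjusted p = 0.0656) with values at the signal threshold of 5.32. That difference was 0.21 without untreated arrays 2 and 3, while pair 1 alone went from 5.36 to 5.91. The difference was 0.18 without the 5 μM array 1, and its block adjusted p reached 0.203 when 1 array was left out. The probe sets 200831_s_at and 211162_x_at differed by 0.13 and 0.10. FADS2, the delta-6 desaturase, was at 8.39, 8.14 and 8.15 against 8.14, 8.01 and 7.87, a difference of -0.22 (block adjusted p = 0.0527). The difference was -0.38 without untreated arrays 2 and 3, whereas in pair 1 FADS2 went from 8.39 to 8.14. ELOVL6, which lengthens saturated chains, differed by 0.14 (204256_at), -0.15 (227491_at) and 0.00 (210868_s_at), with no call in either fit.

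SCD, SREBF2 and ACACA thus had probe sets that passed in both directions, and the direction went with brightness. 1 of the 6 member probe sets that were higher with the block was the brightest of its gene (16.7%), that of PMVK, against 8 of the 12 that were lower (66.7%). The same split was seen over all genes, with 27.9% of the 1740 higher and 62.7% of the 2444 lower probe sets being the brightest of their gene. Which transcripts each probe set reads was not examined here.

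**Figure D3:**
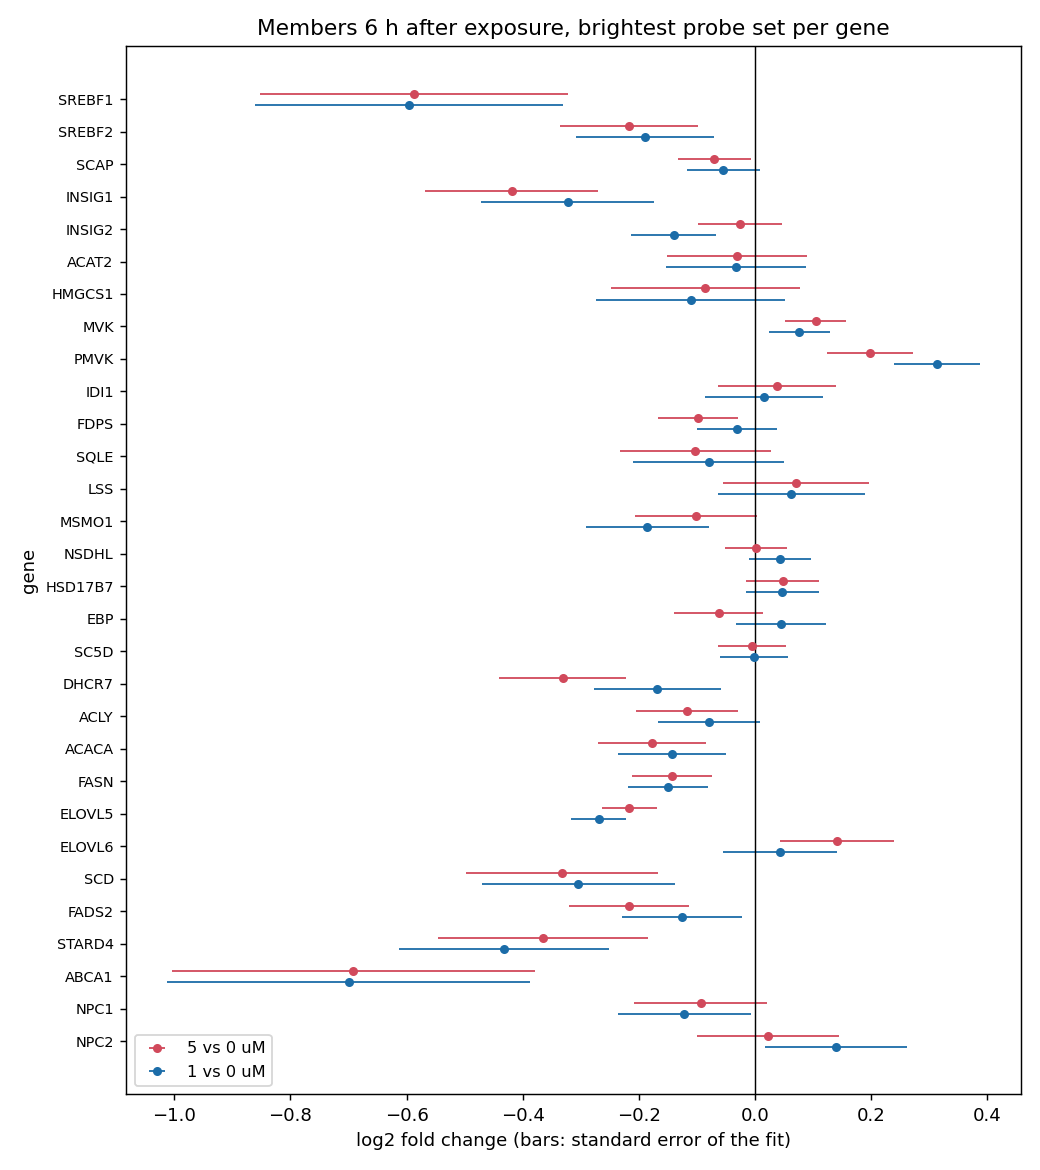
Log2 fold change of the 30 members tested at 6 h at the brightest probe set, 5 against 0 μM in red and 1 against 0 μM in blue, with the standard error of the fit without the block as bars. Both doses were compared with the same 3 untreated arrays; ABCA1 and SREBF1 have the longest bars and ELOVL5 and PMVK short ones that lie away from 0.

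Among the transport genes, ABCA1 and STARD4 differed most from 0, and ABCA1 through untreated arrays 2 and 3. ABCA1, the cholesterol exporter, was at 6.28, 7.61 and 7.63 without cocaine and at 6.32 to 6.60 on the 6 cocaine arrays (203505_at). The second probe set, 203504_s_at, was at 5.70, 6.88 and 7.05 and at 5.31 to 5.88. Untreated array 1 was within the range of the cocaine arrays at the second and just under it at the first, and the other 2 were far above, as they were for CYP26A1. The differences at 5 μM were -0.69 (SE 0.31, adjusted p = 0.303 from limma) and -0.77 (SE 0.32, adjusted p = 0.262, 0.0877 with the block). Without those arrays they were 0.20 and 0.07. STARD4, which moves cholesterol between membranes, was at 10.35, 10.62 and 11.00 against 10.16, 10.19 and 10.52, lower in each pair. Its difference of -0.36 passed with the block (adjusted p = 0.0276) and was -0.06 without untreated arrays 2 and 3, where untreated array 1 is set against the mean of all 3 cocaine arrays. Within pair 1 STARD4 differed by -0.19. NPC1 and NPC2, which release cholesterol from lysosomes, differed by -0.09 and 0.02.

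**Figure D4:**
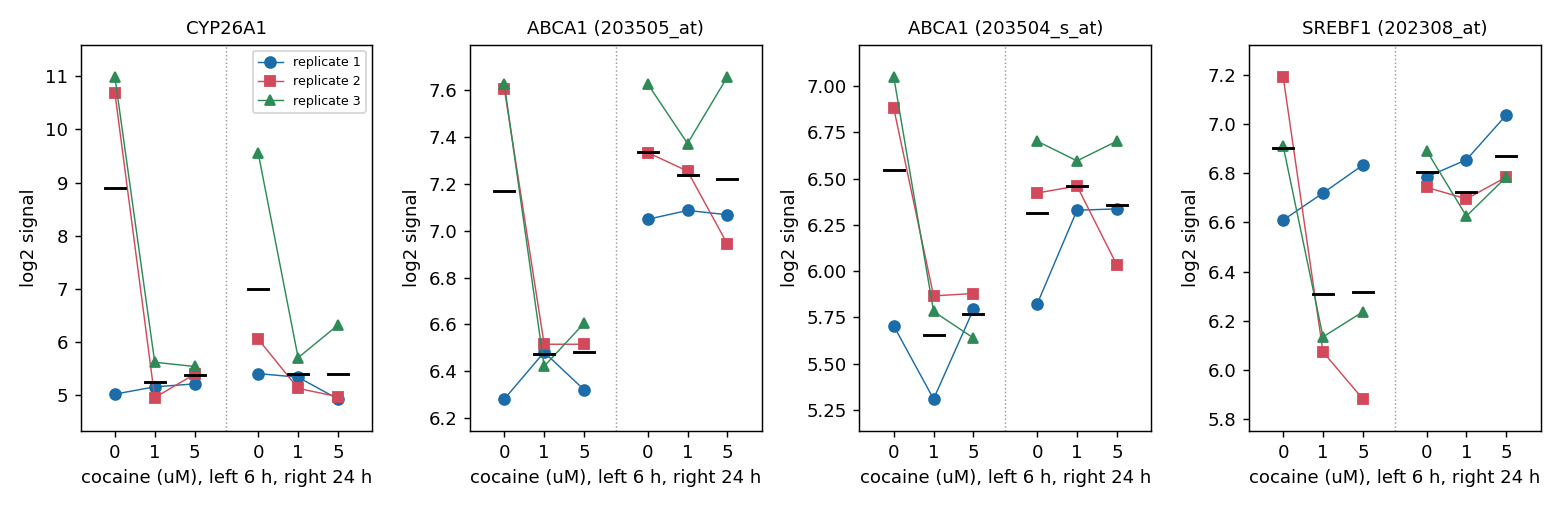
Log2 signal on each of the 18 arrays for CYP26A1, both ABCA1 probe sets above the signal threshold and SREBF1, against cocaine dose (μM) at 6 h (left of the dotted line) and 24 h (right), 1 line per replicate number and a black bar at the mean. CYP26A1 and ABCA1 are high together in untreated arrays 2 and 3 of 6 h; signals of the times were normalized apart, so heights are read within a time.

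With 1 μM at 6 h no probe set passed without the block, 0% of the members and of all 22455, with 3222 of all and 8 of the members at an unadjusted p under 0.05 in limma. With the block 14 member probe sets of 12 genes passed (24.6%), against 12.5% of all, 6 higher (10.5%, against 5.11%) and 8 lower (14%, against 7.44%). The comparison shares its untreated arrays with that of 5 μM, so the values are set side by side only. No member probe set passed with the block when untreated array 2 or 3 or any 1 μM array was left out. Without untreated array 1 there were 15, and without 5 μM arrays 1, 2 and 3 there were 10, 6 and 8. Counts over all 22455 probe sets moved as well, to 4696, 0 and 100 without untreated arrays 1, 2 and 3, and those for the 5 μM arrays stand in the last section. ELOVL5 differed by -0.27 at 1 μM and -0.22 at 5 μM, SQLE (213577_at) by 0.44 and 0.37, and PMVK by 0.31 and 0.20. INSIG1 (201626_at) differed by -0.32 and -0.42, DHCR7 (201791_s_at) by -0.17 and -0.33, SCD (200832_s_at) by -0.30 and -0.33, STARD4 by -0.43 and -0.36 and ABCA1 (203504_s_at) by -0.89 and -0.77. The remaining calls at 1 μM were INSIG1 at 201627_s_at (-0.31), SREBF2 at 201247_at (-0.19) and at 242748_at (0.17), IDI1 at 242065_x_at (0.20), ACACA at 214358_at (0.35) and EBP at 213789_at (0.20). IDI1 at 242065_x_at was at 8.69, 8.69 and 8.88 without cocaine and at 8.92, 8.89 and 9.05 with 1 μM, without overlap. SREBF2 at 242748_at was at 5.66, 5.68 and 5.49 against 5.90, 5.75 and 5.69, also without overlap. Doses of 0 and 1 μM did not overlap in 6 member probe sets (10.5%), against 17.4% of all.

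Between 1 and 5 μM at 6 h no probe set passed in either fit, 0% of the members and of all, with 1448 of all and 1 of the members, SQLE at 1557352_at (0.31), at an unadjusted p under 0.05 in limma. The arrays of the 2 doses did not overlap in 4 member probe sets (7.02%), against 13.5% of all. Differences of the members ran from -0.18 to 0.40 with a median SE of 0.10.

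At 24 h no member passed in any comparison, with or without the block. The excess of 3' over 5' signal of ACTB was 0.93, 0.69 and 1.03 on the 5 μM arrays of 24 h and 0.61, 0.49 and 0.65 on the untreated ones, without overlap, and its part in the values below was not tested. Over all 24307 probe sets 3 passed for 5 against 0 μM (0.0123%), 0 for 1 against 0 μM and 2 for 5 against 1 μM (0.00823%), and with the block 2 (0.00823%), 0 and 1 (0.00411%). Of the 63 member probe sets, 5, 2 and 5 had an unadjusted p under 0.05 in limma, against 1751, 819 and 1488 of all 24307. Doses did not overlap in 6 member probe sets for 5 against 0 μM (9.52%, against 10.4% of all), in 5 for 1 against 0 μM (7.94%, against 7.2%) and in 12 for 5 against 1 μM (19%, against 11.1%).

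The member with the smallest p for 5 against 0 μM at 24 h was FASN, at 7.34, 7.32 and 7.30 without cocaine, 7.32, 7.48 and 7.47 with 1 μM and 7.57, 7.48 and 7.75 with 5 μM. The 5 μM arrays were above the untreated ones without overlap, by 0.29 (SE 0.079, adjusted p = 0.525 from limma, 0.178 with the block). ACACA (212186_at) was at 9.23, 9.28 and 9.39 against 9.57, 9.44 and 9.51, also without overlap, a difference of 0.21 (adjusted p = 0.574). ACLY at its brightest probe set was at 11.85, 11.72 and 11.66 against 11.80, 11.80 and 11.62, with no difference (0.00). Over the 3 genes the mean deviation from the gene means was -0.05, -0.09 and -0.08 on the untreated arrays. On the 5 μM arrays it was 0.12, 0.05 and 0.10. Dose held 69.2% of the spread of ACACA and 69.5% of that of FASN, but 2.35e-05% of that of ACLY. The median over all genes was 19.6%. At the dim probe sets the means of 0 and 5 μM were 6.16 and 6.17 for ACACA (214358_at) and 5.84 and 5.84 for FASN (217006_x_at).

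In most other groups at 24 h the smallest p belonged to a dim probe set. INSIG1 at 201625_s_at was at 7.15, 6.80 and 6.90 without cocaine and at 6.05, 6.41 and 6.67 with 5 μM, a difference of -0.57 (SE 0.17, adjusted p = 0.556 from limma). At the brightest probe set INSIG1 was at 9.67, 9.16 and 9.88 against 9.22, 9.12 and 9.75, which overlap (-0.21). HMGCS1 differed by 0.37 at 205822_s_at (5.92, 5.88 and 5.77 against 6.50, 6.05 and 6.11) and by -0.22 at the brightest, 221750_at (9.11, 8.98 and 9.26 against 8.82, 8.87 and 9.02). The 2 probe sets of HMGCS1 thus differed in opposite directions, with adjusted p of 0.593 and 0.713. SQLE at 1557352_at was at 6.62, 6.75 and 6.88 against 6.32, 6.57 and 6.63 (-0.25, adjusted p = 0.646), and at the brightest probe set at 10.16, 10.06 and 10.26 against 10.24, 10.07 and 10.20 (0.01). SCD at 211708_s_at differed by 0.30 (5.72, 5.67 and 5.37 against 6.24, 5.72 and 5.69) and at its brightest by -0.03 (11.18, 11.18 and 10.94 against 11.29, 11.12 and 10.81). NPC2 was at 10.46, 10.54 and 10.40 against 10.50, 10.41 and 10.18 (-0.10). Neither ELOVL5 (-0.03), PMVK (-0.01), SQLE at 213577_at (-0.04) nor STARD4 (-0.04) differed by as much as 0.05, and SREBF1 was at 6.78, 6.74 and 6.89 against 7.04, 6.78 and 6.78 (0.06), SREBF2 at 7.21, 7.23 and 7.27 against 7.27, 7.35 and 7.17 (0.03). ABCA1 (203505_at) was at 7.05, 7.33 and 7.63 against 7.07, 6.94 and 7.66, highest in replicate 3 at each dose.

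Whether the change with 5 μM differed between the times was tested as the change at 6 h minus that at 24 h over all 18 arrays. FASN and DHCR7 passed, 2 of 57 member probe sets (3.51%), against 4.21% of the 22358 tested. FASN was -0.14 at 6 h and 0.29 at 24 h, a difference of -0.43 (SE 0.10, adjusted p = 0.0479 from limma). DHCR7 was -0.33 and 0.17, a difference of -0.50 (SE 0.14, adjusted p = 0.0782), its arrays of 24 h being at 8.01, 7.78 and 7.90 without cocaine and 8.17, 7.99 and 8.04 with 5 μM. At these probe sets, 212218_s_at and 201791_s_at, each gene was lower with cocaine in all 3 pairs of 6 h and higher in all 3 pairs of 24 h. Their other probe sets did not share this. FASN at 217006_x_at differed by -0.08 at 6 h and 0.00 at 24 h (adjusted p of the difference 0.793 from limma) and DHCR7 at 201790_s_at by -0.05 and 0.12 (adjusted p = 0.775), and at both pair 3 of 6 h was higher with cocaine. Without untreated arrays 2 and 3 of 6 h the differences were -0.51 (adjusted p = 0.106) and -0.63 (adjusted p = 0.0967). The call of FASN was lost when the 5 μM array 2 of 6 h was left out (adjusted p = 0.116), and that of DHCR7 when any of 8 arrays was left out, namely any untreated or 5 μM array other than untreated array 2 and 5 μM array 3 of 6 h and untreated array 1 and 5 μM array 2 of 24 h.

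With the block 12 member probe sets passed this test (21.1%), against 15.9% of all, 10 of them with a negative difference and 2, both of SQLE, with a positive one. Without untreated arrays 2 and 3 of 6 h the block count was 3 (5.26%), below the 7.9% of all. ACACA (212186_at) differed by -0.39 (block adjusted p = 0.0114), having been -0.18 at 6 h and 0.21 at 24 h. The other negative ones were ACLY at 201127_s_at (-0.25) and 210337_s_at (-0.23), SREBF2 at 201248_s_at (-0.39), FADS2 (-0.28), SCD at 200832_s_at (-0.30), STARD4 (-0.32, and -0.02 without those arrays) and ELOVL5 (-0.18), besides FASN and DHCR7. SQLE differed by 0.51 (1557352_at) and 0.41 (213577_at). The other probe sets of these genes did not pass with the block, and some went the other way. ACACA differed by 0.28 (214358_at), SREBF2 by -0.24 (201247_at) and 0.24 (242748_at) and ACLY by -0.12 (201128_s_at). SCD differed by 0.18 (200831_s_at), -0.11 (211162_x_at) and 0.06 (211708_s_at). SQLE differed by -0.11 at its brightest, 209218_at, and by 0.21 at 213562_s_at.

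**Figure D5:**
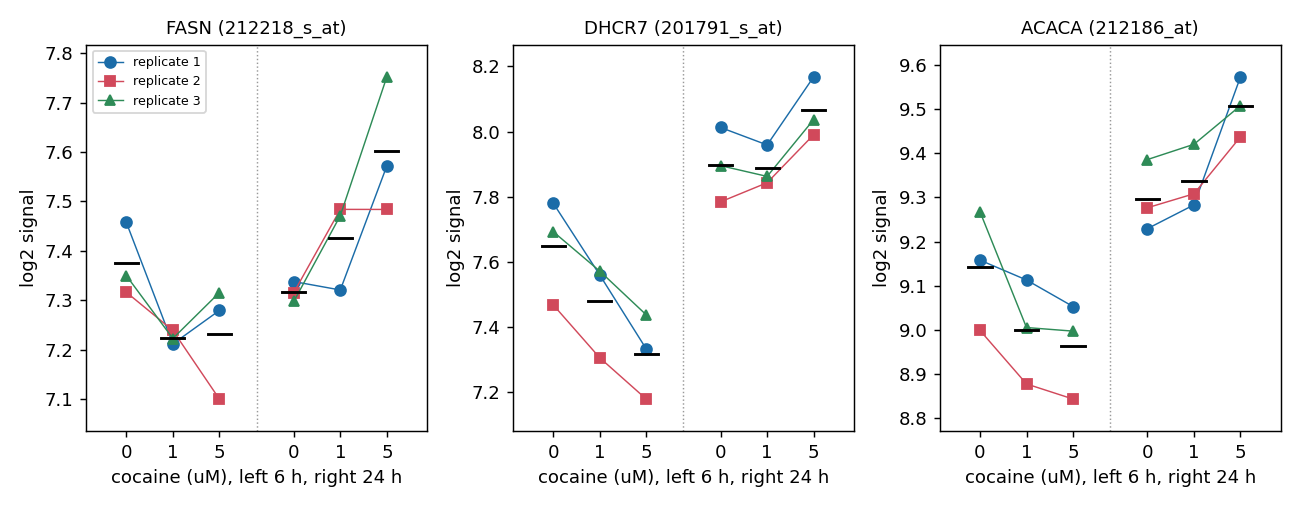
Log2 signal on each of the 18 arrays for FASN, DHCR7 and ACACA against cocaine dose (μM) at 6 h (left of the dotted line) and 24 h (right), 1 line per replicate number and a black bar at the mean. In each panel the 5 μM arrays lie below the untreated array of the same number at 6 h and above it at 24 h; heights are read within a time.

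Other genes of these pathways were counted beside the members: 61 were listed, of sterol synthesis, sterol sensing, fatty acid synthesis and lipid storage or transport, and 50 were tested at each time. With 5 μM at 6 h, of their 88 probe sets 2 passed as higher and 2 as lower (2.27% each, against 1.57% and 1.42% of all), or 12 and 11 in the block fit (13.6% and 12.5%, against 7.75% and 10.9%). HACD3, the dehydratase of very long chain elongation, rose at 217777_s_at, from 10.27, 10.01 and 9.96 to 10.53, 10.57 and 10.56 (0.47, SE 0.099, adjusted p = 0.0775 from limma), and at 222404_x_at by 0.24 (adjusted p = 0.0792). Its brightest probe set, 222405_at, was at 12.11, 12.13 and 12.15 against 12.15, 12.16 and 12.11, a difference of 0.01 with no call. TECR, the reductase of the next step, fell from 9.30, 9.36 and 9.18 to 8.98, 9.00 and 9.00 (-0.29, adjusted p = 0.0909). MBTPS1, the site-1 protease that cuts SREBP, fell from 9.23, 9.27 and 9.32 to 8.99, 9.09 and 9.03 (-0.23, adjusted p = 0.0948) at 201620_at. Its dimmer probe set 217543_s_at was at 7.12, 6.92 and 7.01 against 6.92, 6.98 and 6.93, which overlap. No other gene of these pathways passed with 1 μM at 6 h or in any comparison at 24 h. With 1 μM at 6 h the block fit called 8 in each direction (9.09% each, against 5.11% and 7.44% of all). TMEM97 had the smallest p there, at 212279_at (0.42, adjusted p = 0.154 from limma). Its brighter probe set 212282_at was at 10.38, 10.38 and 10.48 without cocaine and 10.32, 10.40 and 10.59 with 1 μM. For 5 against 0 μM at 24 h SCARB2 had the smallest p, at 201646_at (-0.35, adjusted p = 0.386 from limma). Its brighter probe set 224983_at was at 12.06, 12.08 and 12.08 against 12.08, 12.08 and 12.10.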

How the data were processed

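The deposited table holds log2 values of 54675 probe sets on 18 Affymetrix Human Genome Plus 2.0 arrays. To make them, the authors ran RMA of the affy package (background correction, normalization, median polish) on the arrays of each time alone, so levels were not compared between times; tool versions are not given in the sources used here. Wording of the controls also stands in labels of 5 μM arrays, whose stated dose was used. Gene names came from the platform annotation, updated through RefSeq (41037 of 41091 probe sets with 1 symbol matched); probe sets with several symbols were tested but not named. Following the methods, probe sets with a symbol and a mean above log2(40) were kept and doses compared within each time with limma 3.58.1 in R 4.3.3 (lmFit, eBayes, Benjamini-Hochberg over all kept, adjusted p under 0.10). The scripts were tested on simulated data. Python 3.11.15 with pandas 2.3.3 and matplotlib 3.10.9, and version 1.17.8 of the R package data.table, were used for joins and plots.

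Members, roles and lists were chosen with earlier results of these data known. Array values are given for members called in any comparison, for up to 6 per comparison called with the block whose doses do not overlap, for SREBF1, SREBF2, INSIG1, HMGCS1, SQLE, FASN, SCD and ABCA1, and for the member with the smallest p in each role; FADS2, STARD4 and second probe sets were added after their values were seen. Of the other pathway genes, up to 4 called ones per comparison are named, otherwise that with the smallest p.

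Doses share replicate numbers in the labels. Deviations of arrays with the same number correlated at 0.377 to 0.768 at 6 h and 0.424 to 0.733 at 24 h (9 pairs each), and those with different numbers at -0.632 to 0.0711 and -0.575 to 0.165 (18 pairs each), so equal numbers were treated as pairs, and a fit blocked on the number is given beside results it changes. The labels call the arrays biological replicates without saying what a number shares, and p-values measure the spread between pools of 3 dishes. The number of arrays limits the precision.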

Additional observations from a re-analysis of the deposited data

Results flagged for a closer look

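2 members had a change with 5 μM cocaine that differed between the times in a direct test. The difference, 6 h minus 24 h, was -0.43 for FASN (adjusted p = 0.0479 from limma) and -0.50 for DHCR7 (adjusted p = 0.0782). Untreated arrays 2 and 3 of 6 h, which had high CYP26A1, and the hybridization control bioD move with the untreated side at 6 h, and their part in these differences was not tested.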

How the results depend on the processing

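Depth is not measured on arrays, and dim probe sets near log2(40) carry the least certain values. No value called without the block changed direction. Without untreated arrays 2 and 3, in the fit without the block, 2 of the 18 block calls for 5 against 0 μM at 6 h changed sign. These were ABCA1 at 203504_s_at (-0.77 to 0.07) and ACACA at 214358_at (0.29 to -0.05). Such changes of sign were not counted over all probe sets. Within pair 1, ABCA1 went from 5.70 to 5.79 and ACACA from 5.86 to 5.88 there, so ACACA kept its direction in that pair. Uncalled values such as ABCA1 at 203505_at also changed sign (-0.69 to 0.20, and -0.58 to 0.31 for its difference between the times). For 5 against 0 μM at 6 h, 1 member probe set and 670 of all probe sets passed, and counts of members here are of their probe sets. These became 18 and 4184 with the replicate number as a block, 3 and 1437 in a fit of all 18 arrays, 7 and 3309 with array weights, 0 and 131 with the 6 arrays of both doses, and 0 and 104 at an adjusted p under 0.05. They became 0 members without the signal filter or after quantile normalization, and 126 probe sets with 1 per gene. Leaving out 1 array gave 0 to 4 members and 0 to 2432 probe sets, or 1 to 23 and 350 to 6654 with the block (members 23, 2, 7, 15, 12, 10, 11, 1 and 2, and in the same order probe sets 6654, 669, 1234, 4206, 2734, 2740, 2757, 353 and 350). Settings chosen after seeing the data were the removal of untreated arrays 2 and 3, which leaves 1 untreated array, the block with centred arrays (18 and 4771), and leaving out arrays with the block. For 1 against 0 μM at 6 h, 0 and 0 became 14 and 2818 with the block, 3 and 541 with 18 arrays, 6 and 1009 with weights, 6 and 1931 with the block without untreated arrays 2 and 3, 15 and 3268 with the block and centred arrays, 0 to 5 and 0 to 962 without 1 array, and 0 to 15 and 0 to 4696 without 1 array with the block (members 15, 10, 6 and 8, and probe sets 4696, 100, 2014, 1101 and 1484, where these moved). For 5 against 1 μM at 6 h, weights gave 2 probe sets. At 24 h no alternative called a member. The 3 probe sets of 5 against 0 μM became 1 without the signal filter, with unnamed probe sets or at 0.05, 0 with 6 arrays or 1 per gene, 43 with 18 arrays and 0 to 3 without 1 array. The 2 of 5 against 1 μM became 1 with the block, centred arrays or 0.05, 0 with 6 arrays or 1 per gene and 0 to 2 without 1 array. The 2 member probe sets whose change differed between the times became 12 with the block, 4 with an intensity trend or centred arrays, 5 with weights, 1 at 0.05 or without untreated arrays 2 and 3, and 0 to 4 without 1 array. Of the other pathway genes, 23 and 16 probe sets passed with the block for 5 and 1 μM at 6 h. The block changed no call at 24 h among the members. The causes were not tested.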
